A study of Mus musculus with 18 samples.

Results

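The small leucine-rich proteoglycans are secreted proteins of the extracellular matrix, and 9 of their genes were followed here across mouse skin cells: Dcn, Bgn, Aspn, Lum, Fmod, Prelp, Ogn, Podn and Ecm2. They were taken by symbol from the 32285 genes of the 10 mRNA libraries, and all 9 were found in each. The list was drawn up with results of these libraries in view, so they count as chosen by measured values, and which values those were is not recorded. Counts over the 9 genes therefore describe them, and none is offered as support for a change of the family. In the study, all mice, controls included, had surgery with a cut in the back skin near the tail and a path made under the skin to the neck. Mice of the expanded arm received a hydrogel expander, stitched in place under the skin near the neck, and control mice received none. Skin was digested 1, 2 or 4 days later and living, DAPI-negative cells were sorted. Each arm had 2 libraries of day 1, 2 of day 2 and 1 of day 4, in sequencing rounds that paired a control with an expanded library. All mice of an arm in a round were pooled in 1 tube, so a library is a pool of animals; strain and age are not given in the sources used here.

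Proteins of this family carry a core of leucine-rich repeats, and many bear chondroitin, dermatan or keratan sulphate chains. They bind collagen and set the width and spacing of its fibrils, and several bind growth factors such as TGF-β. In the dermis, decorin and lumican are made mainly by fibroblasts, and skin that lacks either is fragile or lax with uneven collagen fibrils.

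In the main comparison, over fibroblast-like cells, Ecm2, Aspn and Ogn had the lowest log2 fold changes of the 9 genes after expansion. They are neighbours on chromosome 13. The order depended on the cells taken: over all kept cells Lum lay below Ogn and Podn below Aspn. With unnamed clusters added to the class, Lum lay below Aspn and Ogn. The order there is Ecm2 at chr13:49504810-49532789, Aspn at chr13:49544443-49567565, the family gene Omd at chr13:49582462-49592822 and Ogn at chr13:49608046-49624501 (GRCm38, all on the plus strand), within 119.7 kb. Because these genes lie side by side and were lower together, the 250 bases before the RefSeq start of each of the 3 members are given 5′ to 3′ from the plus strand (GRCm38.p6, chr13:49504560-49504809 for Ecm2, chr13:49544193-49544442 for Aspn and chr13:49607765-49608014 for Ogn). Capitals mark matches, on either strand, to the TATA box letters TATAAA, the AP-1 letters TGANTCA and the TEAD letters GGAATG.
Ecm2: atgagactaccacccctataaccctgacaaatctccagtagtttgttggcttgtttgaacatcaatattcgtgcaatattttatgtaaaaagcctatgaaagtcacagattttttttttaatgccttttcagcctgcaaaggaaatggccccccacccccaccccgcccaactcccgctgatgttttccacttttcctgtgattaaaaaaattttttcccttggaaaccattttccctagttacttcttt
Aspn: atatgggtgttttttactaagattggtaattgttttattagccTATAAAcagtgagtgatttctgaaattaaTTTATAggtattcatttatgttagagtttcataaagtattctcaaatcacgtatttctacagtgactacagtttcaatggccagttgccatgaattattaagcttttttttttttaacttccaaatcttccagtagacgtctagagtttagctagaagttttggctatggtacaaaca
Ogn: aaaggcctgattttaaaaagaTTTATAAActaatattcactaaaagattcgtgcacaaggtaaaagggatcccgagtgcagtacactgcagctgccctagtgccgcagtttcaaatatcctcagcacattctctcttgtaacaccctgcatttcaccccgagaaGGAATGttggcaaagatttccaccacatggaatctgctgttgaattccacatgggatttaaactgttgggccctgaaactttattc
The Ecm2 window held no match to any of the 3 motifs. The Aspn window held 2 TATA matches and the Ogn window held 2 that overlap, all more than 170 bases before the start, and the Ogn window also held 1 TEAD match that begins 86 bases before it. Among 27025 mouse promoter windows of this length, 12.97% held TATAAA, 6.87% TGANTCA and 12.6% GGAATG. The windows of Bgn, Fmod and Prelp held none of these letters, nor did the 2 of Podn, which lie inside its GENCODE gene.

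The libraries held 17726739 to 75470722 gene UMIs (unique molecular identifiers, each standing for 1 captured mRNA molecule), and 45504 cells were analysed. No pair of libraries shared more than 18 cell barcodes, at most 0.413% of the smaller library. Cells were clustered without the 18 genes of the family. Marker genes named 7 clusters fibroblast-like, with 9999 control and 2315 expanded cells. They are called here by a leading gene: Cpz, Vstm2a, Cilp, Ccl19, Mme, Tnc and Apod. The Coch cluster (1829 control and 1252 expanded cells) had fibroblast as its best class but stayed unnamed, since Crabp1, a dermal papilla marker, was among its leading genes. The Gpx3 cluster (838 control and 37 expanded cells) had adipocyte as its best class on too few markers and stayed unnamed as well. Both were picked for description after their values were seen. Summed fibroblast markers ran from 54518 to 166924 CPM (UMIs of a gene scaled to the same total in every sum) in the fibroblast-like cells of control libraries and from 18294 to 67457 in expanded ones, and all 11 were detected. In the main comparison below, 5 of these 11 markers were called lower and 2 higher in expanded libraries. There 17.3% of all genes were called lower and 17.4% higher.

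In control skin, Dcn, Lum, Bgn, Aspn, Ecm2, Prelp and Podn were read in all 8 of these clusters with at least 100 control cells (the Tnc cluster had fewer), Ogn mostly in a few of them, and Fmod mainly in the Coch cluster. The values are UMIs summed over the 5 control libraries and given as CPM of the cluster, and they describe where each gene was read, with no test. Decorin (Dcn, chr10:97479609-97518143), which binds collagen fibrils and TGF-β, ran from 9183 CPM in the Cilp cluster to 33677 in the Apod cluster. Lumican (Lum, chr10:97565128-97572703), a keratan sulphate proteoglycan of collagen fibrils, ran from 726 in the Coch cluster to 4501 in the Cpz cluster. Dcn and Lum lie side by side on chromosome 10, and their levels followed each other over 23 classes and clusters (Pearson r 0.99, a description over groups that share libraries). Biglycan (Bgn, chrX:73483602-73495933), a close relative of decorin, varied less from cluster to cluster and lay between 1135 and 1578 in all of these clusters except the Apod cluster, at 590.4.

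Asporin (Aspn), which binds collagen and TGF-β, was highest in the Mme cluster at 2513 CPM and the Coch cluster at 2486, and lowest in the Apod cluster at 295. Osteoglycin (Ogn), also called mimecan, stood at 1219 in the Coch cluster and 1096 in the Gpx3 cluster, against 15.4 in the Mme cluster. Ecm2 was highest in the Coch cluster at 724 and lay between 192 and 325 in the others. The 3 chromosome 13 neighbours thus shared a high level in the Coch cluster, while only Aspn was also high in the Mme cluster. Prelp (chr1:133910304-133921414), which binds collagen and heparan sulphate, was also highest in the Coch cluster, at 789, with 673 in the Mme cluster and 166 in the Cpz cluster. Podocan (Podn, chr4:108014791-108096445) was lowest in the cluster where these 4 were high, and ran from 60.4 in the Coch cluster to 275 in the Gpx3 cluster. Fibromodulin (Fmod, chr1:134037254-134048277), a regulator of collagen fibril assembly, stood at 2425 in the Coch cluster and at no more than 17.99 in any other. Prelp and Fmod are neighbours on chromosome 1, and their levels had a Pearson r of 0.21 over the 23 groups.

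Outside the fibroblast-like, Coch and Gpx3 clusters, Dcn and Lum were lower in every class, with at most 1810.2 CPM of Dcn and 346 of Lum, both in Schwann-like cells. Part of what was read there can be free RNA. The level in immune classes, which should lack these genes, was taken over T cell-like, NK or innate lymphoid-like, macrophage or monocyte-like, dendritic-like, mast-like and neutrophil-like cells. Over these 6 classes, Dcn ran from 191 CPM in T cell-like to 711 in neutrophil-like cells, Lum from 50.3 to 154, Bgn from 18.2 to 45.3 and Aspn from 14.9 to 66.0. Ecm2 reached 24.1 and Ogn 16.1 CPM in mast-like cells, Prelp 9.65 and Podn 5.01. Fmod reached 20.02 CPM in NK or innate lymphoid-like cells, where 48 of its 52 UMIs came from control day 1 of round 1. In some other classes, Aspn, Ogn and Prelp were above these levels and within the range of the fibroblast clusters. Bgn reached 577 CPM in smooth muscle-like cells, which here include cells with the pericyte gene Rgs5, 547 in dermal papilla-like cells and 287 in skeletal muscle-like cells. Aspn reached 553 in dermal papilla-like and 441 in smooth muscle-like cells. Prelp stood at 193 and Ecm2 at 132 in lymphatic endothelial-like cells, against 18.2 and 34.6 in other endothelial-like cells. Ogn stood at 146 in Schwann-like cells, beside 1810.2 of Dcn. The same 2 genes stood at 2.38 and 191 in T cell-like, 16.1 and 468 in mast-like and 12.6 and 234 in dendritic-like cells. The part of free RNA in these levels was not tested.

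**Figure D1:**
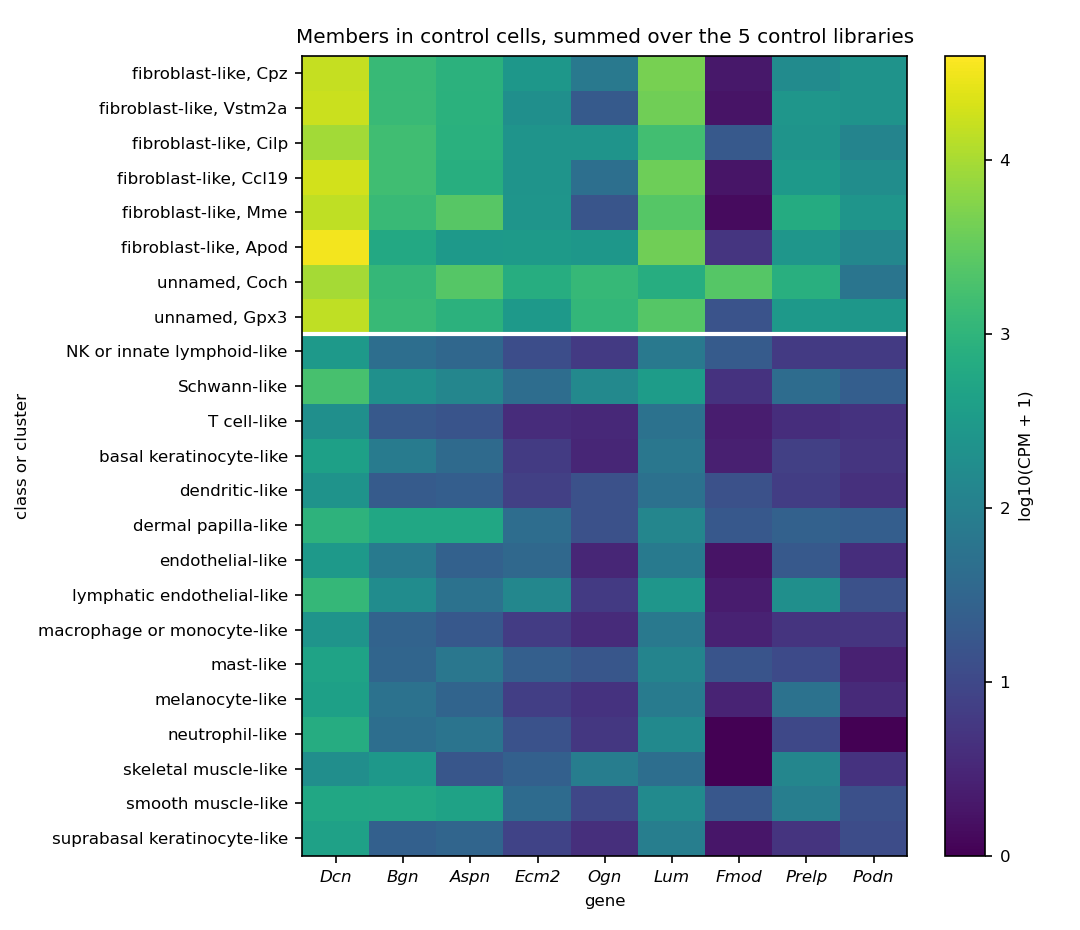
Level of each member (columns) in control cells of each class or cluster (rows), as log10(CPM + 1) of UMIs summed over the 5 control libraries. The white line separates the fibroblast-like clusters and the unnamed Coch and Gpx3 clusters from other classes. Dcn is bright in every cluster above the line, and Fmod is bright in the Coch cluster.

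The main comparison asked how the genes differed between expanded and control skin within fibroblast-like cells, on UMIs summed per library. Of the 9 genes, 7 fell and none rose: Ecm2, Ogn, Aspn, Lum, Podn, Dcn and Bgn, in that order of their log2 fold changes (edgeR quasi-likelihood test with day as covariate, adjusted p under 0.05 over 12363 genes). In the same test 17.3% of all genes fell and 17.4% rose. The median log2 fold change was -0.82 over the 9 genes and 0.02 over all genes tested. Prelp and Fmod did not pass. The p-values rest on the spread between libraries that is left after day and arm are fitted. Each library is a pool of mice, so pool, tube and sequencing round enter that spread together, and this fit does not pair libraries by round.

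The arms differed in which clusters made up the class. The Cpz cluster gave 21.9% to 49.1% of the fibroblast-like, Coch and Gpx3 cells in control libraries and 0.211% to 8.9% in expanded ones, while the Tnc cluster gave 0.0294% to 3.35% and 8.63% to 26.8%. Levels in the class therefore combine levels within clusters and the mix of clusters, and both are given below. The log2 fold changes use TMM scaling (trimmed mean of M-values), which set the median gene near 0; with plain library sizes that median moved to 0.24, the split of genes called became 3705 higher and 1164 lower in place of 2149 and 2142, 6 members stayed lower (all but Bgn) and Fmod was called higher. CPM values below are plain and take no TMM scaling, so a fold read from them differs from the fitted one. Marker genes of other cell types were summed in the same cells. The dermal papilla list lay at 180.2 to 408 CPM in control and 333 to 1777 CPM in expanded libraries, with 3 of the 7 genes tested called higher and none lower. The lymphatic endothelial list lay at 195 to 300.1 and 606 to 708 CPM (1 of 2 tested higher), the basal keratinocyte list at 17.3 to 49.3 and 26.7 to 172 CPM (1 of 6 tested higher) and the neutrophil list at 0.622 to 3.16 and 3.29 to 152 CPM (2 of 2 tested higher). The hair follicle list lay at 546 to 719 CPM in control and 160 to 472 CPM in expanded libraries, with 1 of the 7 genes tested called lower and 1 higher. The macrophage or monocyte list lay at 20.8 to 46.6 and 23.8 to 183 CPM, with 3 of the 6 genes tested called lower and 1 higher. None of the genes of these 6 lists was at 0 in all libraries. In the melanocyte and Schwann lists, 2 of 2 and 2 of 4 genes tested were called lower and none higher. The part of all these marker genes in the members' differences was not tested.

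Decorin, a binder of collagen and TGF-β, stood in control libraries at 15471 and 12624 CPM on day 1, 13533 and 13529.8 on day 2 and 19926 on day 4. In expanded libraries it stood at 11943 and 12156 CPM on day 1, 9937 and 9433 on day 2 and 12874 on day 4. The day 4 control library was the highest and the day 4 expanded library overlapped the lowest control. The log2 fold change was -0.63 (SE 0.13 and edgeR adjusted p 0.0033), with expanded below its paired control in 5 of 5 pairs. Biglycan had 1324 and 1343 CPM on day 1, 1076 and 1364 on day 2 and 1433 on day 4 in control libraries, and 1130.2 and 916 CPM on day 1, 1149.5 and 1142 on day 2 and 1495 on day 4 in expanded ones. Those ranges overlapped widely, with the day 4 expanded library the highest of all 10. The log2 fold change of Bgn was -0.40 (SE 0.13 and edgeR adjusted p 0.032) and plain CPM was lower in 3 of 5 pairs; this call was lost without any 1 of 6 libraries (control day 1 replicates 1 and 2, control day 2 replicate 2, expanded day 1 replicates 1 and 2, expanded day 2 replicate 2), with adjusted p between 0.054 and 0.088.

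Asporin separated the arms without overlap. Its control libraries had 809.8 and 917 CPM on day 1, 1184 and 914 on day 2 and 1105 on day 4. All 5 expanded libraries lay close together, at 465 and 426 CPM on day 1, 430.5 and 433 on day 2 and 489 on day 4. The gene went from 986 ± 154 to 449 ± 27.4 CPM (SD, n = 5 each), a log2 fold change of -1.36 (SE 0.13 and edgeR adjusted p 0.00016). Lumican also separated the arms. Its control levels were 4592 and 2658 CPM on day 1, 3155 and 2817 on day 2 and 3953 on day 4. Its expanded levels were 2092 and 1564 CPM on day 1, 1584 and 1169 on day 2 and 2105 on day 4. The highest expanded library thus stayed below the lowest control, and the log2 fold change was -1.25 (SE 0.19 and edgeR adjusted p 0.00083).

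Ecm2, a matrix protein with leucine-rich repeats akin to those of decorin, had the lowest log2 fold change of the 9. Control libraries held 234 and 220.2 CPM on day 1, 336 and 166 on day 2 and 295 on day 4. Expanded libraries held 90.2 and 64.9 CPM on day 1, 38.5 and 55.4 on day 2 and 50.2 on day 4. No expanded library came near the lowest control, and the fitted level was 5.03-fold lower, a log2 fold change of -2.33 (SE 0.25 and edgeR adjusted p 0.00023). Osteoglycin, which takes part in collagen fibril growth, held 86.4 and 87.9 CPM on day 1, 97.8 and 55.5 on day 2 and 93.0 on day 4 in control libraries. It held 20.6 and 14.98 CPM on day 1, 15.2 and 11.9 on day 2 and 43.3 on day 4 in expanded libraries. Day 2 of round 2 was the lowest control and day 4 the highest expanded library, and the groups did not overlap. Its log2 fold change was -2.33 (SE 0.25 and edgeR adjusted p 0.00022), 5.02-fold lower. Aspn, Lum, Ecm2 and Ogn were the 4 members with every expanded library below every control library, as were 4.68% of all genes tested. Only 0.388% of all genes had a log2 fold change below that of Ogn.

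Podocan, a member that binds collagen, had 268 and 155 CPM on day 1, 190.5 and 178 on day 2 and 167 on day 4 in control libraries. Its expanded libraries had 162 and 118 CPM on day 1, 117 and 122 on day 2 and 121 on day 4. Expanded day 1 of round 1 reached into the control range and the other 4 did not. The log2 fold change was -0.82 (SE 0.17 and edgeR adjusted p 0.0043), lower in 5 of 5 pairs. Prelp had 221 and 249 CPM on day 1, 167 and 392 on day 2 and 202 on day 4 in control libraries and 539 and 335 CPM on day 1, 285 and 389 on day 2 and 175 on day 4 in expanded ones. The arms overlapped, with a log2 fold change of 0.21 (SE 0.23 and edgeR adjusted p 0.495) and 2 of 5 pairs lower.

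Fibromodulin was low within this class, and near the level of immune classes in control libraries. It had 3.36 and 6.71 CPM on day 1, 2.38 and 5.05 on day 2 and 0.965 on day 4 in control libraries, and 5.04 and 15.6 CPM on day 1, 8.99 and 3.84 on day 2 and 9.51 on day 4 in expanded ones. T cell-like cells held 0 to 2.05 CPM in control and 0 to 3.38 CPM in expanded libraries, and NK or innate lymphoid-like cells 0 to 3.67 CPM in 4 control libraries, 114 in control day 1 of round 1 and 0 to 3.52 in expanded ones. Each expanded library of the fibroblast-like class was above the expanded levels of these 2 immune classes, the lowest of them on 9 UMIs. Summed over control libraries, dendritic-like cells held 13.0 and mast-like cells 14.5 CPM, macrophage or monocyte-like cells 1.71 and neutrophil-like cells 0. Expanded levels of these other immune classes were not compared. The log2 fold change was 1.15 (SE 0.44 and edgeR adjusted p 0.065), and its direction depended on which clusters formed the class: without the Tnc cluster it was -1.42 (adjusted p 0.054), and with coarser or finer clusters -1.41 and -1.63 (adjusted p 0.022 and 0.018), while DESeq2 on the same sums called it higher (1.15, adjusted p 0.025). In the Tnc cluster itself, Fmod stood at 8.82 to 39.4 CPM in the 5 expanded libraries and at 0 to 1.17 in the 2 control libraries with at least 20 such cells.

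**Figure D2:**
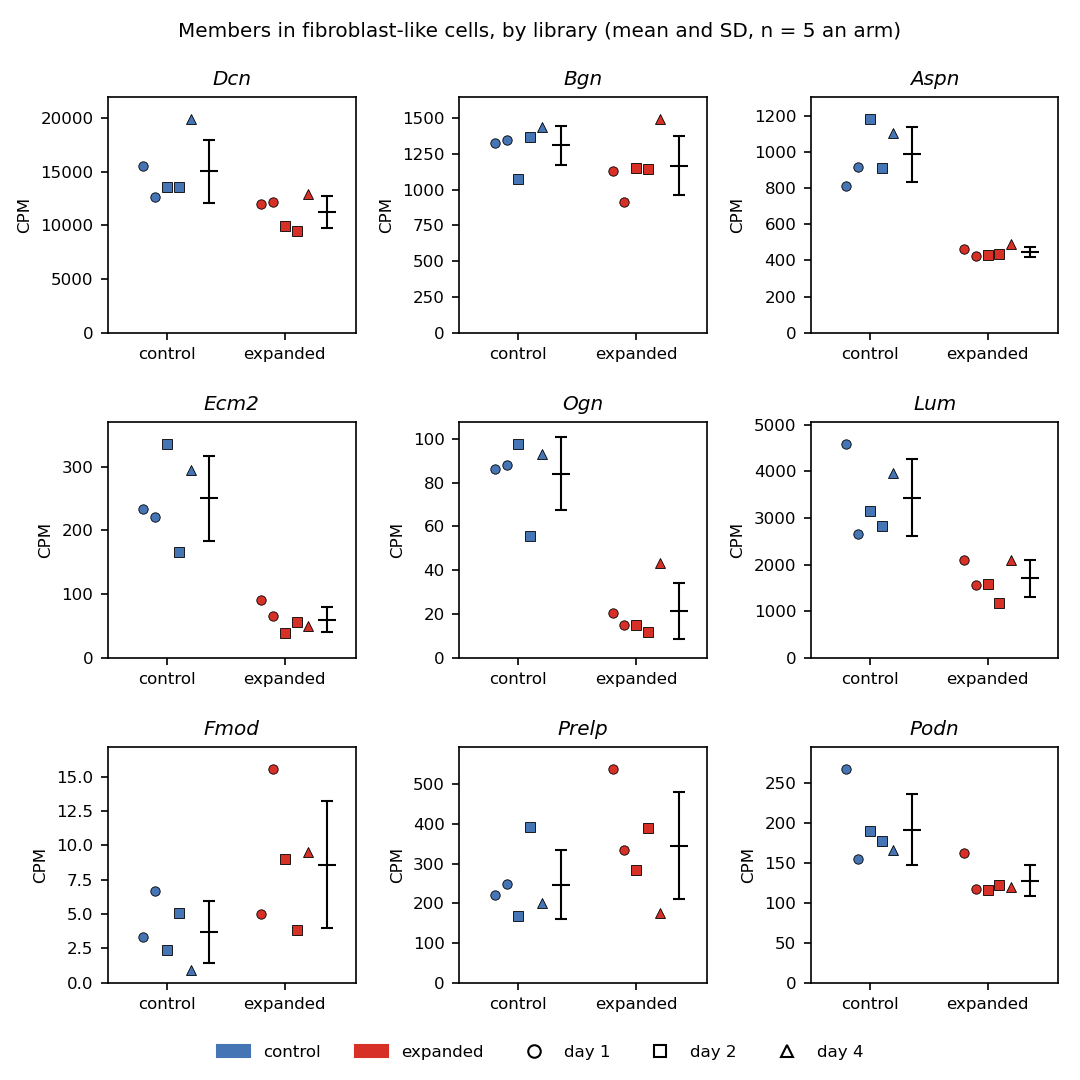
CPM of each member in fibroblast-like cells, 1 point a library, coloured by arm with the day as symbol; bars give the mean and SD of 5 libraries. Expanded points lie below all control points for Aspn, Ecm2, Ogn and Lum, and the arms overlap for the other 5.

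By day, Ecm2, Aspn and Ogn passed the test on days 1 and 2, and the test of a difference between days called no member, which does not show that the days were alike. That arm-by-day test called 0 members and 0 of 12363 genes (edgeR quasi-likelihood; 415 genes at an unadjusted p under 0.05, and 24 genes called by the likelihood ratio test of DESeq2, none of them a member). With no filter on low counts it called 312 genes, of which Fmod was the 1 member (adjusted p 0.029). Day 4 had 1 library an arm and took its spread from the other days. Within day 1, Ogn was at -2.57 (SE 0.32 and adjusted p 0.015), Ecm2 at -1.83 (SE 0.36 and adjusted p 0.027) and Aspn at -1.23 (SE 0.23 and adjusted p 0.025) on the log2 scale. Within day 2, Ogn, Ecm2 and Aspn passed, with Ogn at -2.63 (SE 0.34 and adjusted p 0.012), Ecm2 at -2.63 (SE 0.38 and adjusted p 0.012) and Aspn at -1.45 (SE 0.23 and adjusted p 0.014). On each of these days 4.03% and 3.70% of all genes were called lower. On day 4 no member passed, where 0.0485% of genes did, with Ecm2 at -2.78 (SE 0.54 and adjusted p 0.082) Ogn at -1.33 (SE 0.44 and adjusted p 0.2), Aspn at -1.40 (SE 0.32 and adjusted p 0.105) and Fmod at 3.06 (SE 0.93 and adjusted p 0.17). With no filter on low counts, the day 4 values were -2.85 for Ecm2, -1.40 for Ogn and -1.47 for Aspn. Lum stood at -1.20 and Fmod at 2.997 in that fit. These values were close to those with the filter, while their adjusted p-values were lower. Day 4 had 1 library an arm, so that fit is not read as support for a change on that day. With the filter, Fmod stood at 0.76 on day 1 and 0.74 on day 2 (adjusted p 0.409 and 0.508). Lum stayed near 1 value, at -1.29, -1.28 and -1.14 on days 1, 2 and 4, and passed on none of them (adjusted p 0.0503, 0.056 and 0.296). Prelp went from 0.61 on day 1 to -0.43 on day 4, a difference that the test did not call (unadjusted p 0.26). On days 1, 2 and 4, Dcn was at -0.51, -0.64 and -0.86, Podn at -0.90, -0.79 and -0.69 and Bgn at -0.67, -0.24 and -0.17, and none of these passed.

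Hashing antibodies, which tag the cells of 1 mouse before pooling, allowed the same comparison over animals in 8 of the libraries. Hashtags gave 42.7% of control and 30.9% of expanded fibroblast-like cells to a mouse, and 14 control and 10 expanded mice had at least 20 such cells. The fit called 7 of the 8 members tested lower and none higher, where 22.2% of 7782 genes were called lower; Fmod was too low to be tested. Ecm2 had 56.1, 232 and 369 CPM (lowest, median and highest of 14 control mice) and 30.6, 46.0 and 83.7 CPM in the 10 expanded mice, a log2 fold change of -2.50 (SE 0.23 and edgeR adjusted p 6.1e-09). Aspn had 391, 965 and 1215 CPM in control mice and 246, 441 and 715 CPM in expanded mice (-1.31, SE 0.15 and edgeR adjusted p 1.8e-07). Ogn had 14.2, 46.7 and 105 CPM in control and 1.08, 19.7 and 55.6 CPM in expanded mice, a difference of -1.45 (SE 0.36 and edgeR adjusted p 0.0017). Single mice of the 2 arms overlapped for every member. Lum was at -1.08 (SE 0.12 and edgeR adjusted p 1.9e-07), Dcn at -0.62 (SE 0.08 and edgeR adjusted p 1.3e-06), Podn at -0.61 (SE 0.12 and edgeR adjusted p 0.00019) and Bgn at -0.33 (SE 0.11 and edgeR adjusted p 0.015). Prelp did not pass, at 0.02 (SE 0.21 and edgeR adjusted p 0.964). All control mice of a round shared 1 tube and all expanded mice another, so tube and arm cannot be told apart.

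**Figure D3:**
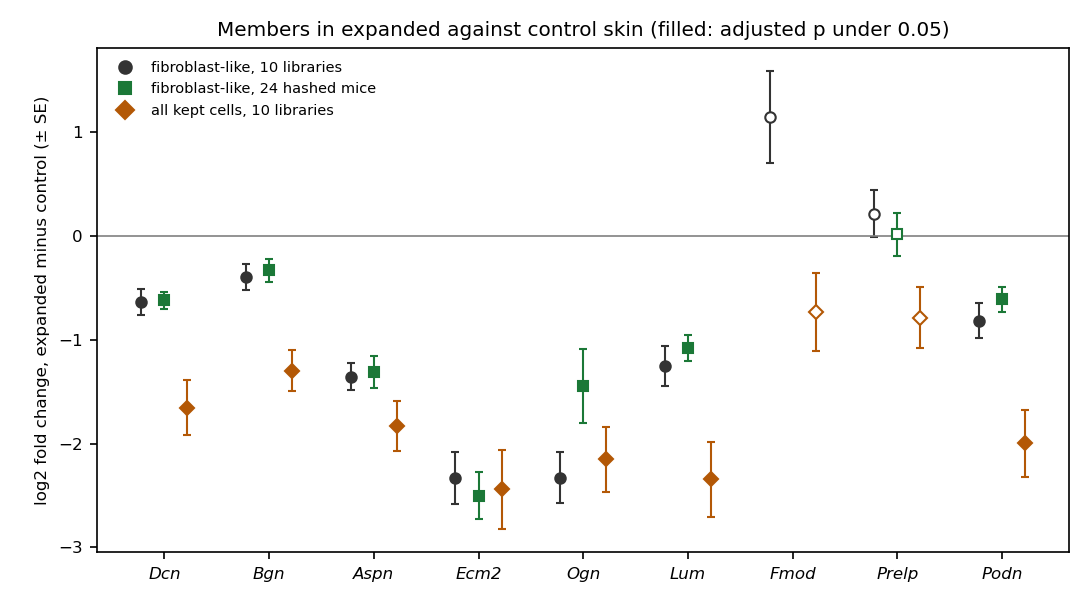
Log2 fold change (expanded minus control, with SE) of each member in fibroblast-like cells over libraries, over hashed mice, and in all kept cells over libraries; filled symbols have an adjusted p under 0.05. Ecm2 lies between -2.50 and -2.33 in all 3, while Dcn, Bgn, Lum and Podn are lower over all kept cells than within the class.

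Within single clusters, the chromosome 13 neighbours gave most of the calls: Ecm2 was called lower in 5, Aspn in 4 and Ogn in 4. The 5 clusters with enough libraries gave 41 member-by-cluster tests, of which 17 were called, all lower. Of these, 5 calls were lost without 1 or another library. They are Ogn in the Vstm2a cluster (adjusted p up to 0.189 without 1 of control day 1 replicates 1 and 2, control day 2 replicate 1 and expanded day 1 replicates 1 and 2) and Lum in the Cilp cluster (up to 0.096 without 1 of control day 1, 2 and 4 replicate 1, expanded day 1 replicates 1 and 2, expanded day 2 replicate 2 and expanded day 4). The others are Podn in the Mme cluster (up to 0.139 without 1 of control or expanded day 1, 2 and 4 replicate 1), Ecm2 in the Coch cluster (up to 0.056 without control day 1 replicate 1 or either day 4 library) and Aspn there (0.0502 without control day 1 replicate 1). All genes called lower made up 3.30% in the Vstm2a cluster, 3.73% in the Cilp cluster, 8.00% in the Mme cluster, 2.07% in the Apod cluster and 3.13% in the Coch cluster. These shares moved when 1 library was left out: to between 1.00% and 4.18% in the Vstm2a, 1.81% and 5.92% in the Cilp, 4.63% and 8.41% in the Mme, 0.631% and 1.998% in the Apod and 1.03% and 5.73% in the Coch cluster. The lowest came without control day 1 replicate 1, except in the Mme cluster, where it came without control day 4. Ecm2 fell in all 5: by 1.69 (SE 0.25 and edgeR adjusted p 0.005) in the Vstm2a, 1.92 (SE 0.28 and edgeR adjusted p 0.0021) in the Cilp, 1.92 (SE 0.26 and edgeR adjusted p 0.00011) in the Mme, 1.58 (SE 0.23 and edgeR adjusted p 0.0015) in the Apod and 1.24 (SE 0.27 and edgeR adjusted p 0.019) in the Coch cluster on the log2 scale. Aspn fell in 4 of them. In the Mme cluster it had 2118 to 2954 CPM in control and 844 to 1542 CPM in expanded libraries (-1.10, SE 0.17 and edgeR adjusted p 0.00042), and it did not pass in the Apod cluster (-0.86, SE 0.35 and edgeR adjusted p 0.177). Ogn fell in all 4 clusters where it was tested. In the Coch cluster it had 837 to 1722 CPM in control and 315 to 650.0 CPM in expanded libraries (-1.36, SE 0.22 and edgeR adjusted p 0.0045). In the Cilp cluster it had 111 to 391 CPM in control and 19.7 to 111 CPM in expanded libraries (-2.12, SE 0.37 and edgeR adjusted p 0.005).

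The other calls within clusters were 2 of Lum, 1 of Dcn and 1 of Podn. Dcn fell in the Mme cluster (-0.65, SE 0.15 and edgeR adjusted p 0.0079) and did not pass in the other 4, where it ran from -0.58 in the Apod to 0.00 in the Coch cluster. Lum fell in the Cilp (-0.67, SE 0.17 and edgeR adjusted p 0.031) and Mme clusters (-0.67, SE 0.17 and edgeR adjusted p 0.014), and Podn in the Mme cluster (-0.56, SE 0.17 and edgeR adjusted p 0.041). Bgn and Prelp passed in none of the 5, with values from -0.27 to 0.04 for Bgn and from -0.51 to 0.03 for Prelp. Fmod in the Coch cluster, where most of it lay, had 1176 to 3199 CPM in control and 893 to 1884 in expanded libraries. Those ranges overlapped and the difference missed the threshold, at -0.79 (SE 0.22 and edgeR adjusted p 0.054), although expanded was lower in 5 of 5 pairs. Whether a difference varied between clusters was not tested.

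The Cpz, Ccl19, Tnc and Gpx3 clusters could not be fitted as clustered, because 1 arm had fewer than 3 libraries with at least 20 of their cells. The Ccl19 cluster could be fitted over 9 libraries when each expanded cell took the cluster of its nearest control cells. There Ecm2 was called lower (-1.78, SE 0.31 and edgeR adjusted p 0.0064), where 3.57% of genes were, and the other 7 members tested did not pass, with Aspn at -0.77, Ogn at -0.66, Lum at -0.44, Dcn at -0.26, Prelp at -0.22, Podn at -0.12 and Bgn at -0.11. The Tnc cluster, with 87.5% of its cells from expanded libraries, had 43.0 to 137 CPM of Aspn, 9.92 to 46.0 of Ecm2 and 6.9 to 19.4 of Ogn over the 5 expanded libraries. The Cpz cluster of the 5 control libraries had 767 to 1188 of Aspn, 237 to 378 of Ecm2 and 53.9 to 123 of Ogn. In the 1 expanded library with at least 20 Cpz cells, day 1 of round 1, the 3 genes stood at 547, 145 and 17.9, below each of the control libraries. Dcn had 9105 to 11864 CPM in the Tnc cluster of expanded libraries and 13327 to 22708 in the Cpz cluster of control libraries. Between these Tnc and Cpz values, cluster and arm differ together and cannot be told apart. Fitted without the Tnc cluster, the log2 fold change in the class was -0.86 for Aspn, -1.95 for Ecm2 and -2.02 for Ogn, and without the Cpz cluster it was -1.28, -2.13 and -2.44. With the class widened by unnamed clusters whose best class was fibroblast, the Coch cluster among them, the 3 values were -0.84, -1.43 and -0.74, all still called lower.

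**Figure D4:**
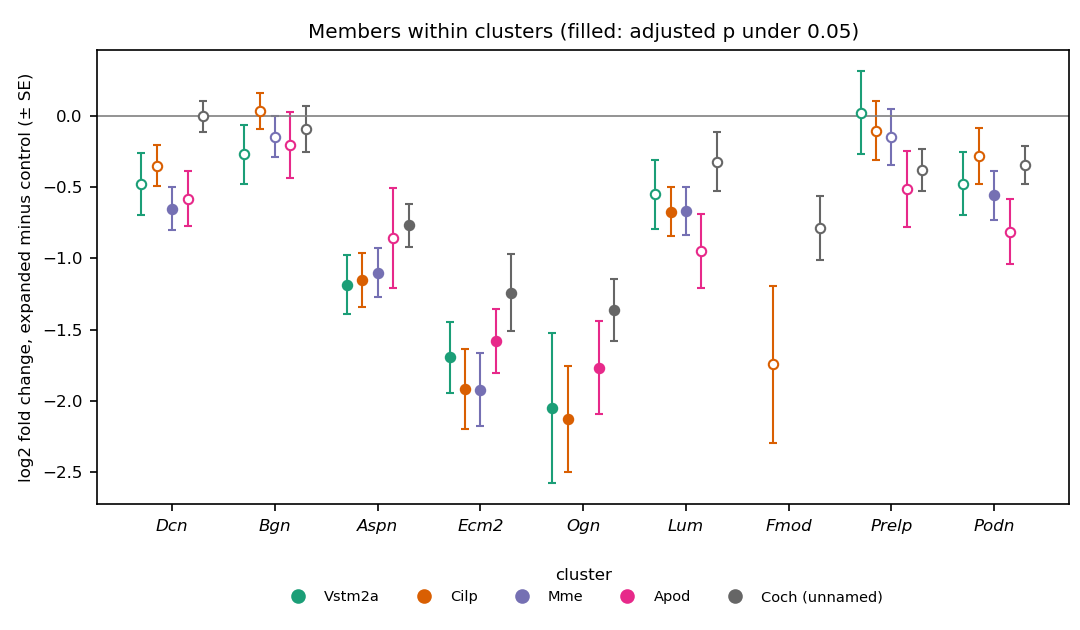
Log2 fold change (expanded minus control, with SE) of each member within 5 clusters, from a fit per cluster over libraries; filled symbols have an adjusted p under 0.05. The Ecm2, Aspn and Ogn symbols lie below 0 in every cluster that was fitted, and no symbol of Bgn or Prelp is filled.

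**Figure D5:**
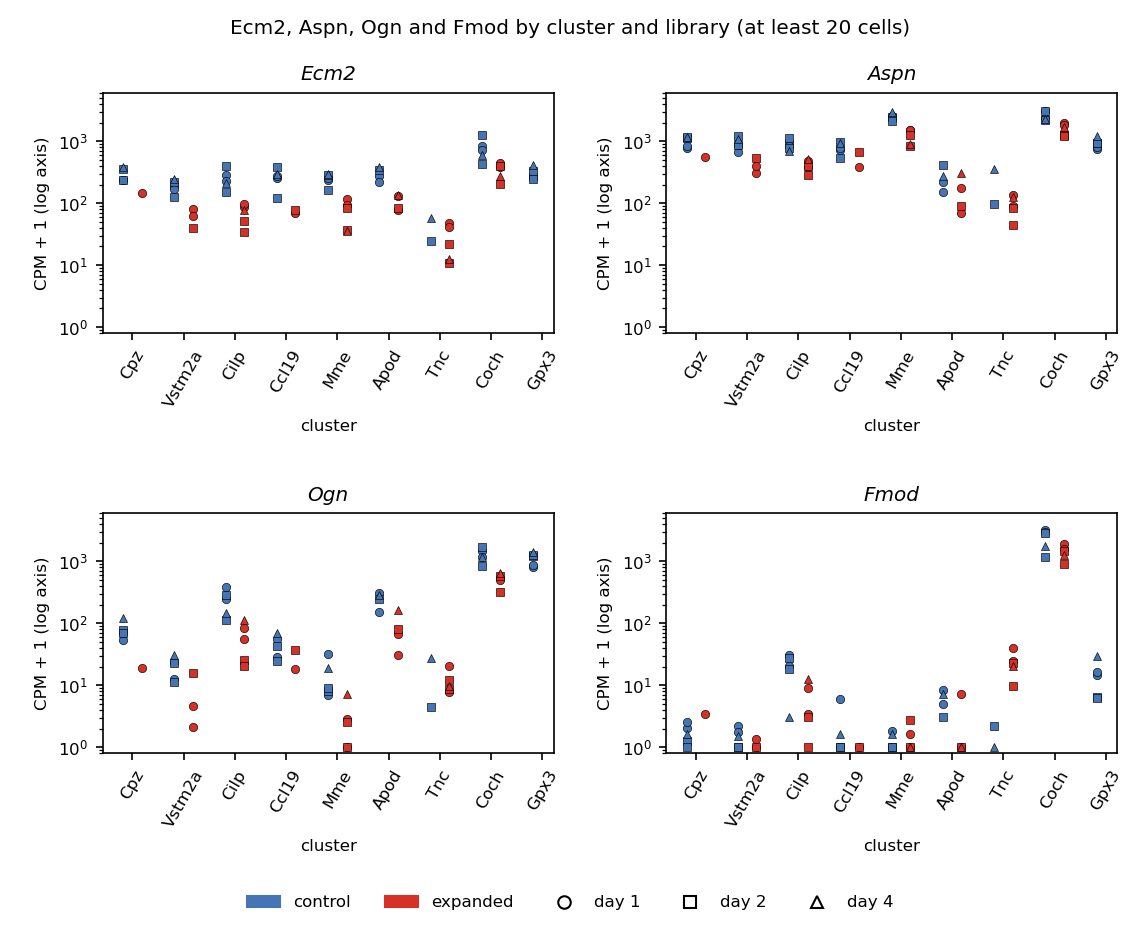
CPM + 1 (log axis) of Ecm2, Aspn, Ogn and Fmod in each cluster, 1 point for each library with at least 20 cells of the cluster, coloured by arm with the day as symbol. Fmod is high in the Coch cluster, Ogn in the Coch and Gpx3 clusters, and expanded points of Ecm2 lie under the control points in most clusters.

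The share of fibroblast-like cells with at least 1 UMI was compared for each member. Each cell was first thinned to 2000 UMIs, which left out 216 of 9999 control and 63 of 2315 expanded cells. The 9 comparisons used a two-sided exact permutation test that set 5 libraries against 5 and can give no p under 0.0079. Cells with Ecm2 went from 35.8% ± 7.45 to 10.6% ± 3.67 (SD, n = 5 each, p = 0.0079 by the exact permutation test), and cells with Aspn from 70.4% ± 5.89 to 34.3% ± 3.04 (exact permutation p 0.0079). Cells with Ogn went from 10.4% ± 2.02 to 3.65% ± 2.03 (exact permutation p 0.016) and cells with Lum from 93.2% ± 2.42 to 72.2% ± 9.37 (exact permutation p 0.0079). Podn and Bgn shares were also lower (exact permutation p 0.016 and 0.016), and that of Fmod was higher, from 0.395% ± 0.347 to 1.22% ± 0.424 (exact permutation p 0.016). Nearly all cells held Dcn in both arms, 98.7% ± 1.02 to 97.2% ± 2.8 (exact permutation p 0.341), and Prelp shares overlapped (exact permutation p 0.587). Without thinning, Ecm2 shares were 76.5% ± 9.92 to 40.3% ± 11.5 and Ogn shares 25.1% ± 4.31 to 11.5% ± 3.32. At the same thinned depth, T cell-like cells with a UMI went from 0.624% ± 0.588 to 0.1% ± 0.17 for Ecm2 and from 27.0% ± 19.4 to 5.62% ± 4.58 for Dcn, and from 0.0977% ± 0.134 to 0.116% ± 0.259 for Fmod.

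Over all kept cells of a library, all members called except Ogn had lower log2 fold changes than within the fibroblast-like class. Of the 9 genes 7 were called lower and none higher, where 13.9% of 16510 genes were called lower, and the median log2 fold change was -1.83 against 0.05 for all genes. Fibroblast-like cells made up 21.6% to 51.0% of control and 8.42% to 25.9% of expanded libraries; at this level, fewer cells of a type and less RNA per cell cannot be told apart. Lum went from 3034 and 1306 CPM on day 1, 1613 and 1062 on day 2 and 1915 on day 4 in control libraries to 788 and 305 CPM on day 1, 382 and 237 on day 2 and 345 on day 4 in expanded ones. The groups did not overlap, as for 7 of the 9 members and 4.57% of all genes, and the log2 fold change was -2.34 (SE 0.36 and edgeR adjusted p 0.0033). Dcn was at -1.65 (SE 0.26 and edgeR adjusted p 0.0037) and Ecm2 at -2.44 (SE 0.38 and edgeR adjusted p 0.0034), with Ogn at -2.15 (SE 0.31), Podn at -1.997 (SE 0.33), Aspn at -1.83 (SE 0.24) and Bgn at -1.30 (SE 0.20). Among expanded libraries, day 1 of round 1 had the highest level of each of the 9 members. Fmod (-0.73, SE 0.37 and edgeR adjusted p 0.174) and Prelp (-0.79, SE 0.29 and edgeR adjusted p 0.074) did not pass, and with each control library matched to the expanded library of its day and round, both did, at -0.64 and -0.86 (adjusted p 0.044 and 0.037). The seat of the RNA differed by gene. Fibroblast-like cells held 71.9% to 88.9% of a control library's Dcn UMIs, and the Coch cluster 67.4% to 99.2% of its Fmod UMIs. For Ogn, the Coch cluster held 29.7% to 60.8% in control and 71.6% to 91.1% in expanded libraries, and for Ecm2 13.3% to 37.9% and 55.5% to 76.9%.

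In the 11 other classes that could be fitted, 52 member-by-class tests gave 23 calls, all lower. Of the members tested, 3 of 7 were called lower in dermal papilla-like cells (1.20%), 2 of 6 in smooth muscle-like cells (11.2%), 5 of 6 in lymphatic endothelial-like cells (5.84%), 4 of 6 in other endothelial-like cells (6.64%), 4 of 5 in macrophage or monocyte-like cells (12.7%) and 3 of 3 in dendritic-like cells (10.2%). A single member was called in melanocyte-like cells (0.494%) and 1 of 3 in T cell-like cells (0.127%), and none in Schwann-like cells (0.181%), NK or innate lymphoid-like cells (0.518%) or basal keratinocyte-like cells (0.998%). Each percentage gives the genes called lower among all tested in that class. In T cell-like cells, which should lack the gene, Lum itself fell from 59.3 ± 40.8 to 7.48 ± 5.32 CPM (SD, n = 5 each), a log2 fold change of -2.99 (SE 0.41 and edgeR adjusted p 0.0083). Dcn in that class went from 189 ± 147 to 107 ± 135 CPM (SD, n = 5 each). How far free RNA enters the calls in other classes was not tested. Some calls were at levels above those of the immune classes in controls. Aspn fell in smooth muscle-like cells, from 418 ± 68.7 to 228 ± 71.0 CPM (SD, n = 5 each), a log2 fold change of -1.03 (SE 0.16 and edgeR adjusted p 0.0016), while Bgn there stood at -0.21 (SE 0.18 and edgeR adjusted p 0.426) and did not pass. In lymphatic endothelial-like cells, Ecm2 fell from 131 ± 19.8 to 24.5 ± 11.7 CPM (SD, n = 5 each), a log2 fold change of -2.54 (SE 0.25 and edgeR adjusted p 3.6e-05) and Prelp from 186 ± 51.8 to 91.4 ± 45.8 CPM (SD, n = 5 each), a log2 fold change of -1.18 (SE 0.23 and edgeR adjusted p 0.0044). In dermal papilla-like cells, Bgn (-0.18, SE 0.23 and edgeR adjusted p 0.757) and Aspn (-1.08, SE 0.50 and edgeR adjusted p 0.297) did not pass, and Ecm2, at 43.7 CPM in controls, fell (-1.88, SE 0.36 and edgeR adjusted p 0.012). Schwann-like cells gave no call, with Ogn at -1.24 (SE 0.43 and edgeR adjusted p 0.356).

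The rest of the family gave little RNA in fibroblast-like cells. Of 9 further genes, 4 were high enough to be tested. Omd, osteomodulin, which sits between Aspn and Ogn on chromosome 13, went from 15.3 ± 2.64 to 6.13 ± 2.28 CPM (SD, n = 5 each), a log2 fold change of -1.63 (SE 0.22 and adjusted p 0.00054) by edgeR, so all 4 genes of that stretch were called lower. Chadl (-0.71, SE 0.17 and adjusted p 0.0088) was lower and Tsku, tsukushi, a secreted binder of BMPs, was higher, from 8.18 ± 1.12 to 18.8 ± 4.34 CPM (SD, n = 5 each), a log2 fold change of 0.98 (SE 0.14 and adjusted p 0.00063). On chromosome 10, Dcn and Lum were called lower, and their neighbours Kera and Epyc were too low to be tested.

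Genes around the members were counted from lists chosen with earlier results of these libraries known, in the same fit of fibroblast-like cells, in which 17.3% of all genes were called lower and 17.4% higher. Of 16 fibrillar collagens and partners tested, 12 fell and 1 rose, with a median log2 fold change of -1.10 against 0.02 over all genes. Col1a2 (-2.24, SE 0.35 and adjusted p 0.00095), Col1a1 (-2.20, SE 0.34 and adjusted p 0.00097) and Col3a1 (-1.62, SE 0.21 and adjusted p 0.00041), chains of the collagens that decorin and lumican bind, were the lowest of these; Col1a1 went from 39154 ± 17204 to 11106 ± 7406 CPM (SD, n = 5 each). Col1a1 and Col1a2 are among the leading genes of the Cpz cluster, which was mostly of control libraries, and the part of that in their fall was not tested. Col12a1, a collagen that decorates fibrils, was the 1 that rose (2.27, SE 0.53 and adjusted p 0.0073). Of 25 genes that build the sugar chains, 9 fell and 6 rose (median -0.18). Chpf, a chondroitin polymerising factor, fell (-1.43, SE 0.26 and adjusted p 0.0019), as did Ugdh, which makes the UDP-glucuronate for the chains (-1.14, SE 0.17 and adjusted p 0.00067) and the sulphotransferase Chst12 (-0.94, SE 0.20 and adjusted p 0.0051). The sulphotransferase Chst15 rose from 4.52 ± 2.6 to 24.5 ± 4.82 CPM (SD, n = 5 each), a log2 fold change of 2.19 (SE 0.29 and adjusted p 0.00049), with Csgalnact1, which starts chondroitin chains (1.97, SE 0.27 and adjusted p 0.00054), and B3galt6 of the linker (0.62, SE 0.18 and adjusted p 0.021).

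The next 3 lists are from the same fit, in which 17.3% of all genes were called lower and 17.4% higher. Of 16 proteases of this matrix and their inhibitors, 6 fell and 5 rose (median -0.08). The serine protease Htra1 fell from 581 ± 79.8 to 282 ± 84.8 CPM (SD, n = 5 each), a log2 fold change of -1.31 (SE 0.17 and adjusted p 0.00044), with Timp2 (-1.18, SE 0.17 and adjusted p 0.0007) and Adamts4 (-0.98, SE 0.27 and adjusted p 0.016). Those that rose were led by the collagenase Mmp13, from 1.6 ± 0.971 to 33.8 ± 42.2 CPM (SD, n = 5 each), a log2 fold change of 3.40 (SE 0.87 and adjusted p 0.012), the inhibitor Timp1 (3.05, SE 0.45 and adjusted p 0.0007) and the stromelysin Mmp3, from 939 ± 142 to 4075 ± 1859 CPM (SD, n = 5 each), a log2 fold change of 1.80 (SE 0.34 and adjusted p 0.0024). Mmp3 and Timp1 are among the leading genes of the Tnc cluster, which was mostly of expanded libraries. Of 15 receptors and growth factors that members bind, 2 fell, Tgfb2 (-1.32, SE 0.17 and adjusted p 0.0004) and Bmp4 (-0.79, SE 0.22 and adjusted p 0.018), and 2 rose, Ccn2 (1.80, SE 0.34 and adjusted p 0.0025) and Ccn4 (0.95, SE 0.28 and adjusted p 0.022), with a median of -0.20. Of 13 other proteoglycans, 4 fell and 3 rose (median -0.11). Prg4, lubricin, rose from 9.64 ± 11.9 to 106 ± 63.4 CPM (SD, n = 5 each), a log2 fold change of 3.46 (SE 0.45 and adjusted p 0.00043), and the syndecans Sdc1 (1.30, SE 0.22 and adjusted p 0.0013) and Sdc4 (0.60, SE 0.16 and adjusted p 0.014) rose too. The cartilage proteoglycan Acan, near the floor at 4.64 CPM in controls, fell (-2.03, SE 0.61 and adjusted p 0.025), as did the glypican Gpc6 (-0.72, SE 0.25 and adjusted p 0.046) and the basement membrane proteoglycan Hspg2 (-0.70, SE 0.14 and adjusted p 0.003).

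Outside the family, the genes whose control levels were most like each member over the 23 classes and clusters were taken by Pearson r of log2(CPM + 1) among 8677 genes, as a description of groups that share libraries. For Dcn they were Mmp2 (0.98), Scara5 (0.98) and Igfbp6 (0.96), and for Lum they were Mmp2 (0.98), Ms4a4d (0.97) and Efemp1 (0.96). For Bgn they were Col6a1 (0.97), Fstl1 (0.97) and Nbl1 (0.96), for Aspn they were Twist1 (0.98), Col6a3 (0.96) and Htra1 (0.96), and for Ecm2 they were Fstl1 (0.93), Ntn1 (0.93) and Serping1 (0.92). For Fmod they were Coch (0.89), Cck (0.85) and Tnmd (0.78), the genes that lead the 1 cluster where it was high. For Ogn they were Abca8a (0.87), Gfpt2 (0.84) and Entpd2 (0.83), its highest r being the lowest of the 9 members. For Prelp they were Serping1 (0.93), Pkd1 (0.93) and Fkbp10 (0.92), and for Podn they were Itgbl1 (0.95), Aldh1a1 (0.95) and Tmed3 (0.95). Among the members themselves, Fmod had an r of at most 0.51 with any other, reached with Ogn.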

How the data were processed

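The data are single-cell mRNA libraries of mouse skin made with a droplet kit that reads the 3′ end of transcripts, in 10 samples, and 8 samples of hashing antibody tags. For control day 1 of round 2, the titles of the mRNA and the hashing sample stand the other way round from their library types, descriptions and files, and the library type was followed. The deposited values are raw UMI counts per gene or hashtag and cell barcode, with no normalization by the authors, made with Cell Ranger 6.1.2 on the mm10 (GRCm38) build per the submitters' processing notes; further filters are not given in the sources used here. The 9 members and all gene lists were chosen with earlier results of these data known.

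Of 55174 barcodes, the 47251 with 200 or more genes, 500 or more UMIs and a mitochondrial share of 10% or less were kept, and 1747 doublets called by Scrublet (in scanpy 1.11.5) or carrying 2 hashtags were removed. Cells were clustered (2000 variable genes, 30 principal components, 15 neighbours, Leiden resolution 1) without 18 genes of the family. A cluster took the class with the best marker score if at least 3 of its markers were raised and its leading genes did not go against it: 29 of 38 clusters were named. The 9 unnamed clusters held 7941 cells. Hashtags were assigned with HTODemux (Seurat 5.3.0, quantile 0.99). UMI counts were summed per library and class (at least 20 cells) and fitted with edgeR 4.0.16 (filterByExpr, TMM, quasi-likelihood, day as covariate, Benjamini-Hochberg over all genes tested, threshold 0.05). A cluster needed 3 such libraries an arm and a class 4. Alternatives included DESeq2 1.42.0, no filter, thinning, other cluster resolutions and leaving out each library. Scaling by library size and leaving out the Tnc or the Cpz cluster were added after seeing the data. Levels are CPM of the sum, and an SD over libraries is the spread of pools of mice.

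Members are given in each comparison, in the other classes by counts with examples, the other family genes where they passed the test, and up to 3 genes a direction of each list with the largest absolute log2 fold change among those called. Likeness takes the 3 closest genes outside the family (classes of at least 100 control cells, genes with a mean of at least 10 CPM). On simulated data with 12363 genes modelled on the fibroblast-like sums, the test recovered 89% of genes changed by 1 on the log2 scale and 100% of those changed by 2, and called 0.0827% of unchanged genes. The changed genes were not drawn from those with the lowest counts, and the simulated sums held no effect of day, round or cluster mix. These rates therefore describe a simpler setting than these libraries. The labels give each control and expanded library the same day and sequencing round, which pairs them; deviations of round from the day mean in the 2 arms had a correlation of 0.355 on day 1 and 0.126 on day 2 over 12363 genes. Gene positions are GENCODE's for GRCm38. Promoters are RefSeq's for GRCm38.p6, where 7 of the 9 members matched (with 2 starts for Podn). RefSeq starts can differ from GENCODE's by some bases, and for Podn by much more. The 2 Podn windows (chr4:108031955-108032204 and chr4:108030987-108031236, minus strand) lie inside the GENCODE gene, whose 5′ end is at 108096445.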

Additional observations from a re-analysis of the deposited data

Results flagged for a closer look

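In a group of 5 libraries, 1 library stood apart from the other 4 for 8 member levels, by the gap to its nearest neighbour set against the range of the group; chance alone marks about 1 in 20 groups. In fibroblast-like cells these were Ogn in control day 2 of round 2 (55.5 CPM, the lowest control) and in expanded day 4 (43.3 CPM, the highest expanded), and Podn in expanded day 1 of round 1 (162 CPM, the highest expanded). Over all kept cells, expanded day 1 of round 1 stood above the other expanded libraries for Dcn (5318 CPM), Lum (788 CPM), Prelp (292 CPM) and Podn (64.9 CPM). Control day 2 of round 1 stood above the other controls for Ogn (298 CPM). Without expanded day 1 of round 1, Podn in fibroblast-like cells had a log2 fold change of -0.87 (edgeR adjusted p 0.0054), and Prelp over all kept cells was called lower (-1.13, edgeR adjusted p 0.0034). Fibroblast-like cells made up 25.9% of the cells of expanded day 1 of round 1, the highest share of the expanded libraries, and their part in these values was not tested.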

How the results depend on the processing

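In fibroblast-like cells, Dcn, Lum, Ogn, Aspn, Podn and Ecm2 kept their direction and stayed called under all 22 alternatives tried, with log2 fold changes of -2.49 to -1.43 for Ecm2, -2.60 to -0.74 for Ogn, -1.44 to -0.84 for Aspn, -1.38 to -0.94 for Lum, -0.97 to -0.55 for Podn and -0.72 to -0.41 for Dcn. Bgn lost its call under 13 of the 22, with values of -0.46 to -0.18. Fmod was called higher, as the 1 member to rise, with DESeq2, with no filter on low counts and with scaling by library size, and turned negative with clusters of resolution 0.5 (-1.41) and 2 (-1.63), with doublets kept (-1.57) and without the Tnc cluster (-1.42); the cause was not tested. Leaving out each library in turn gave 6 to 7 members lower and 0 to 1 higher (1, Fmod, without control day 1 replicate 2 or expanded day 1 replicate 1), with 3365 to 4335 genes called. Thinning to 2000 UMIs left 2214 genes called, against 4291, with fewer counts in each sum. For the arm-by-day test, DESeq2's likelihood ratio test called 24 genes, and fitting with no filter 312, with 1 member, Fmod, among them; leaving out each library gave 0.

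Over mice, Prelp (0.02) turned negative with DESeq2 (-0.0090), with no filter (-0.034), without day 1 round 2 (-0.072) and without day 2 round 1 (-0.17), and passed in none. Leaving out each round gave 6 to 7 members lower; Bgn was lost without day 1 round 2 (edgeR adjusted p 0.085) or day 2 round 2 (0.065) and under the second hashtag rule (0.073). In clusters, leaving out each library gave 12 to 18 calls against 17. In dermal papilla-like, smooth muscle-like, Schwann-like and endothelial-like cells, with 9 calls, no filter gave 25 calls, more genes being tested, and leaving out each library gave 7 to 11; this was not run for the other classes. Over all kept cells, leaving out each library gave 7 to 8 members lower and 2152 to 4982 genes called against 4359, fewest without control day 4 (2152) or expanded day 4 (2154), then without expanded day 2 replicate 2 (2782) or expanded day 1 replicate 2 (2791). With control and expanded libraries paired by day and round as a block, 7 members were called lower in fibroblast-like cells (4717 genes), 19 in clusters, 13 in the 4 other classes and 9 over all kept cells (5422 genes), and no other call of a member in fibroblast-like cells changed. With shares of cells, 7 members had an exact permutation p under 0.05, and 6 did without thinning or at 1000 UMIs. Shares were computed for the members alone, so no share over all genes stands beside these counts. Day 4 has 1 library an arm, and Fmod in fibroblast-like cells of control libraries lies near its level in immune classes, which limits the values of both.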
